A study of Mus musculus with 4 samples.

Results

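The Hippo pathway effectors and targets examined here are 10 genes: the coactivators Yap1 and Wwtr1, the 4 Tead transcription factors (Tead1, Tead2, Tead3 and Tead4), and the target genes Ctgf, Cyr61, Ankrd1 and Amotl2. They were taken by symbol from the 22096 gene symbols of the tables, and all 10 had quantified rows in both. RNA sequencing compared sciatic nerves of Zeb2 cKO mice with those of control mice at postnatal day 7, on a mixed strain background. Zeb2 encodes a DNA-binding protein of the zinc finger class, and cKO stands for conditional knockout. The labels give neither the Cre line nor the deleted exons, nor the genotype of the controls beyond their name. Each sample was pooled nerve RNA, and the number of animals per pool is not given. The labels describe 2 samples per group, and the tables used here hold 1 library of each. No value below therefore has a replicate behind it, no test between the conditions was possible, and differences are given by their size.

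The Hippo pathway is a kinase cascade that restrains growth. Mst kinases with the scaffold Sav1 activate Lats kinases with their Mob1 cofactors, and Lats phosphorylates Yap and Taz (the product of Wwtr1) so that they stay out of the nucleus. Unphosphorylated Yap and Taz enter the nucleus and bind Tead factors, which carry the DNA contact, to switch on genes such as Ctgf and Cyr61. In Schwann cells, the myelinating glia of the nerve, Yap and Taz act with Tead1 and are known to be needed for axon sorting and myelination, in part through Egr2 and the laminin receptor subunit Itga6. Yap and Taz are regulated largely by phosphorylation and location, neither of which an RNA level measures.

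Tead factors recognise the letters GGAATG, read as CATTCC on the opposite strand. The 250 bases before the start are printed for the 3 targets with a window in the RefSeq promoter table (GRCm38.p6), because these targets went different ways between the libraries. Capitals mark GGAATG or CATTCC.
Cyr61, chr3:145649986-145650235, minus strand: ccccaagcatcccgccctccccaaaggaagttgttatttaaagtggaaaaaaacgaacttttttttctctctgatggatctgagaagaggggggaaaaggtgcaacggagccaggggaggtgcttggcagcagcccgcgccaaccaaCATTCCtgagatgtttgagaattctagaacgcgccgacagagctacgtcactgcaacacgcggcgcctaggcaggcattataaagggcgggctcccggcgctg
Ankrd1, chr19:36119845-36120094, minus strand: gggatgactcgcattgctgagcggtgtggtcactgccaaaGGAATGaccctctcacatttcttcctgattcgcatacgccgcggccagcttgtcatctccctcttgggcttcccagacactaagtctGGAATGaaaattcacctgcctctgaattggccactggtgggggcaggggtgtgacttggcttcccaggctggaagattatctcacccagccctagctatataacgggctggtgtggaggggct
Amotl2, chr9:102717554-102717803, plus strand: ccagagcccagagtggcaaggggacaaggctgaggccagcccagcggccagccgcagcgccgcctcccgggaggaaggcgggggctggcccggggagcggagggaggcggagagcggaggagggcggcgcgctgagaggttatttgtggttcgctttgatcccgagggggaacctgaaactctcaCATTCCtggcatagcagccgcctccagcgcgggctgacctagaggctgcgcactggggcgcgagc

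The motif began 103 bases before the start of Cyr61, 65 bases before that of Amotl2, and 210 and 123 bases before that of Ankrd1. Windows were at hand for 7 of the 10 genes, and 6 of those 7 held the motif on 1 strand or the other, Tead2 being the exception. Of the 27025 genes with a window, 14.4% held it. Yap1 and Wwtr1 were among the 6, with the motif 141 bases before the start of Yap1 and 136 or 170 bases before the starts of Wwtr1. Tead1, Tead4 and Ctgf were not analysed here for promoter letters. A match says that the letters are there, and not that a Tead factor binds them.

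The libraries held an estimated 20288183 reads on RefSeq transcripts in Zeb2 cKO nerves and 29729619 in control nerves, computed from the deposited coverage. Zeb2 itself was at 19.5 FPKM (fragments per kilobase, a level normalized for transcript length and library size) in the Zeb2 cKO library, against 34.4 FPKM in the control library, 1.76-fold lower, which is the direction of the labels. Genes with a mean of at least 1 FPKM are called measured. Among the 12903 measured genes, 8.59% lay at least 2-fold above control and 6.25% at least 2-fold below it in Zeb2 cKO nerves, with 1 FPKM added to each value before the ratio. That is 1109 genes higher and 806 lower, and 784 higher and 958 lower once the Zeb2 cKO values are rescaled to the median gene, whose log2 ratio was 0.18 on the deposited scale. The Schwann lineage markers, which check the tissue, were all present, with a summed level of 412 FPKM in Zeb2 cKO nerves and 1047 FPKM in control nerves. In bulk nerve RNA, fewer cells of a type and less RNA per cell cannot be told apart.

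Of the 10 genes, 9 were measured, and Ankrd1 was below 1 FPKM on average. Of the 9, 0 were past 2-fold in the higher direction, 1, Tead4, was past it in the lower direction, and 8 lay within 2-fold. Their median log2 ratio was 0.22, beside 0.18 for all measured genes, with 5 genes above the median gene and 4 below it. Past 2-fold in either direction stood 1 of 9, beside 14.8% of measured genes, a share near the background and no result about the set. At 1.5-fold, 2 of the 9 were higher (Yap1 and Tead2) and 2 lower (Tead1 and Tead4), beside 19.7% of measured genes higher, 9.81% lower and 29.5% in either direction. Within the set, the Tead factors and the targets each held genes on both sides of the median gene.

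**Figure D1:**
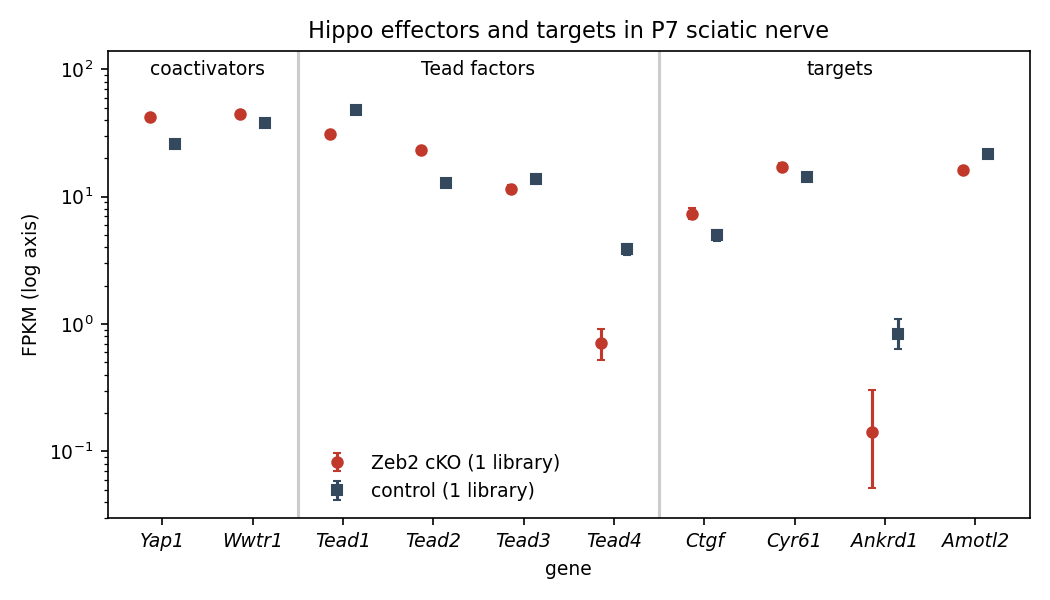
Level of the 10 Hippo genes in FPKM on a log axis, with Zeb2 cKO as circles and control as squares, 1 library each. Bars are 95% Poisson counting intervals from estimated reads. Yap1, Wwtr1 and Tead1 were the most abundant in both libraries, and Tead4 and Ankrd1 the least abundant and the furthest apart.

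The coactivators were both abundant and both at a higher FPKM in the Zeb2 cKO library. Yap1, which encodes Yap (chromosome 9, 7932001 to 8004596, mm9), was at 42.6 FPKM in Zeb2 cKO nerves and 26.1 FPKM in control nerves. It was 1.63-fold higher (95% counting interval 1.56 to 1.71), and 84.0% of measured genes had a lower ratio. Counting intervals here and below cover counting error alone and say nothing of the spread between animals or libraries. Wwtr1, which encodes Taz (chromosome 3, 57259566 to 57379832), was at 44.4 FPKM in Zeb2 cKO nerves and 38.1 FPKM in control nerves, 1.17-fold higher (1.12 to 1.21). Its log2 ratio was only 0.03 above that of the median gene, whereas that of Yap1 was 0.50 above it. The level of Wwtr1 was 1.04 times that of Yap1 in Zeb2 cKO nerves, against 1.46 times in control nerves. Summed, they reached 87.1 FPKM in Zeb2 cKO nerves and 64.3 FPKM in control nerves.

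The Yap1 difference was shared by both of its transcripts. The shorter row (4121 bases) made up 66.9% of Yap1 FPKM in Zeb2 cKO nerves and 67.0% in control nerves, so the balance between the 2 isoforms was nearly the same. For Wwtr1 the main row of 4750 bases was 93.6% of the gene in Zeb2 cKO nerves and 89.7% in control nerves. It was 1.22-fold higher, while the minor row of 4671 bases was 1.38-fold lower. These splits are estimates that Cufflinks makes from reads largely shared between rows.

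The Tead genes, which bind DNA on behalf of Yap and Taz, had ratios on both sides of 1. Tead1 (chromosome 7, 119822834 to 120050319), the family member tied to Schwann cell myelination, was at 31.3 FPKM in Zeb2 cKO nerves and 47.6 FPKM in control nerves. It was 1.52-fold lower (counting interval 1.48 to 1.56), and 9.73% of measured genes had a lower ratio. Tead2 (chromosome 7, 52471123 to 52488989), a member best known from early embryos and neural progenitors, was at 23.3 FPKM in Zeb2 cKO nerves and 12.8 FPKM in control nerves. It was 1.82-fold higher (1.67 to 1.98), the highest ratio of the 10 genes. Tead3 (chromosome 17, 28468618 to 28487750), known from placenta, was at 11.6 FPKM in Zeb2 cKO nerves and 13.8 FPKM in control nerves, 1.20-fold lower (1.07 to 1.29).

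Tead4 was the gene of the set past 2-fold. This factor (chromosome 6, 128177161 to 128250831), known for trophectoderm formation and for its expression in developing skeletal muscle, was at 0.704 FPKM in Zeb2 cKO nerves and 3.86 FPKM in control nerves. It was 5.48-fold lower (counting interval 4.11 to 7.47), on about 52 reads in the Zeb2 cKO library and 419 in the control library. It was called measured through its control level, since its Zeb2 cKO level alone lies under 1 FPKM. The log2 ratio was -1.51 with 1 FPKM added, which understates the difference of so low a gene, and -2.45 without. With 5 FPKM added it was -0.63 and Tead4 was no longer past 2-fold.

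Skeletal muscle transcripts moved with Tead4. All 15 listed muscle markers, with a median log2 ratio of -2.91, were past 2-fold in the lower direction, beside 6.25% of all measured genes. Their summed level was 1110.0 FPKM in Zeb2 cKO nerves and 8977 FPKM in control nerves, 8.09-fold lower. The most abundant were Acta1, skeletal muscle actin, at 193 FPKM in Zeb2 cKO and 1879 FPKM in control nerves, and Mylpf, a fast muscle myosin light chain, at 229 FPKM in Zeb2 cKO and 1728 FPKM in control nerves. None was at 0, the lowest being Myh3, an embryonic myosin, at 0.218 FPKM in Zeb2 cKO and 3.90 FPKM in control nerves. The part of muscle tissue in the Tead4 difference was not tested, nor was its part in those of Tead1 and the other Tead genes.

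The mixture of Tead transcripts differed between the libraries. Summed Tead FPKM was 66.9 in Zeb2 cKO nerves and 78.1 in control nerves, 1.17-fold lower. Tead1 made up 46.8% of it in Zeb2 cKO nerves, against 60.9% in control nerves. The share of Tead2 was 34.9% in Zeb2 cKO nerves and 16.4% in control nerves, and that of Tead3 17.3% in Zeb2 cKO and 17.7% in control nerves. Tead4 took 1.05% in Zeb2 cKO nerves and 4.94% in control nerves. The ratio of Tead1 to Tead2 was accordingly 1.34 in Zeb2 cKO nerves and 3.70 in control nerves, and Yap1 and Wwtr1 together stood at 1.30 times the summed Tead level in Zeb2 cKO nerves, against 0.822 times in control nerves. These shares do not depend on how the libraries are scaled against each other.

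**Figure D2:**
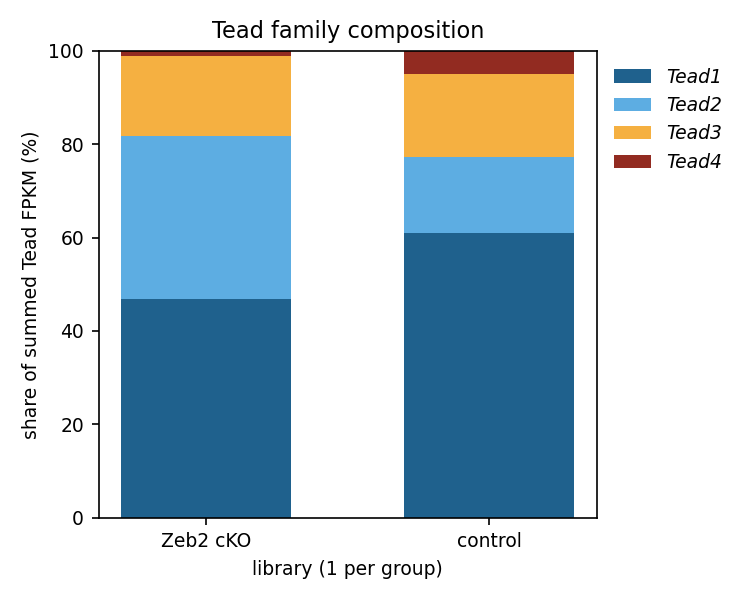
Share of each Tead gene in the summed Tead FPKM, in percent, for the Zeb2 cKO library (left) and the control library (right). Tead2 filled 34.9% of the Zeb2 cKO bar and 16.4% of the control bar, and Tead1 46.8% of the Zeb2 cKO bar and 60.9% of the control bar.

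The main Tead1 row, of 9480 bases, was at 26.5 FPKM in Zeb2 cKO nerves and 42.2 FPKM in control nerves, close to the ratio of the whole gene. A minor row of 9899 bases was at 2.45 FPKM in Zeb2 cKO nerves and 0.379 FPKM in control nerves, the only Tead1 row with the opposite direction. For Tead3, the 2450-base row was 58.9% of the gene in Zeb2 cKO nerves and 80.2% in control nerves, and the 2614-base row 36.1% in Zeb2 cKO nerves and 19.8% in control nerves. These main rows went in opposite directions, at 1.63-fold lower for the first and 1.52-fold higher for the second. A minor Tead3 row of 2773 bases was at 0.581 FPKM in Zeb2 cKO nerves, 5.03% of the gene, and close to 0 in control nerves. Here too the split between rows rests on shared reads.

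The 4 target genes gave no common direction. Ctgf (chromosome 10, 24315248 to 24318488), which encodes a matricellular protein of connective tissue, was at 7.35 FPKM in Zeb2 cKO nerves and 4.97 FPKM in control nerves, 1.48-fold higher (counting interval 1.29 to 1.70). Cyr61 (chromosome 3, 145309935 to 145312949), its relative in the CCN family and an immediate early gene as well, was at 17.0 FPKM in Zeb2 cKO nerves and 14.3 FPKM in control nerves, 1.19-fold higher (1.09 to 1.31). That ratio was 0.05 above the median gene on the log2 scale. Amotl2 (chromosome 9, 102620134 to 102635747), an angiomotin family protein that binds Yap and restrains it as feedback, was at 16.1 FPKM in Zeb2 cKO nerves and 21.6 FPKM in control nerves. It was 1.34-fold lower (1.26 to 1.42). Summed over the 4 targets the level was 40.7 FPKM in Zeb2 cKO nerves and 41.7 FPKM in control nerves.

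Ankrd1 (chromosome 19, 36186455 to 36194334), a cardiac and skeletal muscle ankyrin repeat protein, was the lowest of the targets. It was at 0.141 FPKM in Zeb2 cKO nerves and 0.841 FPKM in control nerves, which rests on about 6 reads in the Zeb2 cKO library and 53 in the control library. The plain ratio was 5.95-fold lower with a wide counting interval of 2.59 to 17.1. Its paralogs Ankrd2 and Ankrd23, both also muscle proteins, were lower as well. Ankrd2 was at 0.758 FPKM in Zeb2 cKO nerves and 4.95 FPKM in control nerves (6.53-fold lower), and Ankrd23 at 6.95 FPKM in Zeb2 cKO nerves and 20.0 FPKM in control nerves (2.88-fold lower). The 15 muscle markers described with Tead4 were lower beside them, and their part in the Ankrd1 difference was not tested.

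Immediate early genes, the class to which Cyr61 also belongs, had ratios above 1 with the exception of Atf3. Of 10 listed, 4 were past 2-fold in the higher direction, beside 8.59% of all measured genes, and 0 in the lower, beside 6.25%. Among the 4, Fosb was called measured through its Zeb2 cKO level, at 3.01 FPKM there and 0.487 FPKM in control nerves. The median log2 ratio of the 10 was 0.87, and their summed level was 185 FPKM in Zeb2 cKO nerves and 89.4 FPKM in control nerves. The 2 most abundant were Nr4a1, an orphan nuclear receptor, at 49.1 FPKM in Zeb2 cKO and 37.1 FPKM in control nerves, and Egr1, at 50.7 FPKM in Zeb2 cKO and 5.62 FPKM in control nerves. The part of this class in the Ctgf and Cyr61 values was not tested.

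The measured CCN relatives of Ctgf and Cyr61 were lower in Zeb2 cKO nerves. Nov, a CCN protein, was at 14.1 FPKM in Zeb2 cKO nerves and 54.5 FPKM in control nerves, 3.86-fold lower. Wisp1, a CCN protein known as a Wnt-induced gene, was at 5.96 FPKM in Zeb2 cKO nerves and 13.3 FPKM in control nerves, 2.24-fold lower. Wisp2 was at 0.467 FPKM in Zeb2 cKO nerves and 0.275 FPKM in control nerves, and Wisp3 at 0.361 FPKM in Zeb2 cKO nerves and 0.451 FPKM in control nerves, too low to be measured. The 2 family members used as Yap and Taz readouts therefore had ratios above 1, and the 2 other measured members ratios below 1.

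**Figure D3:**
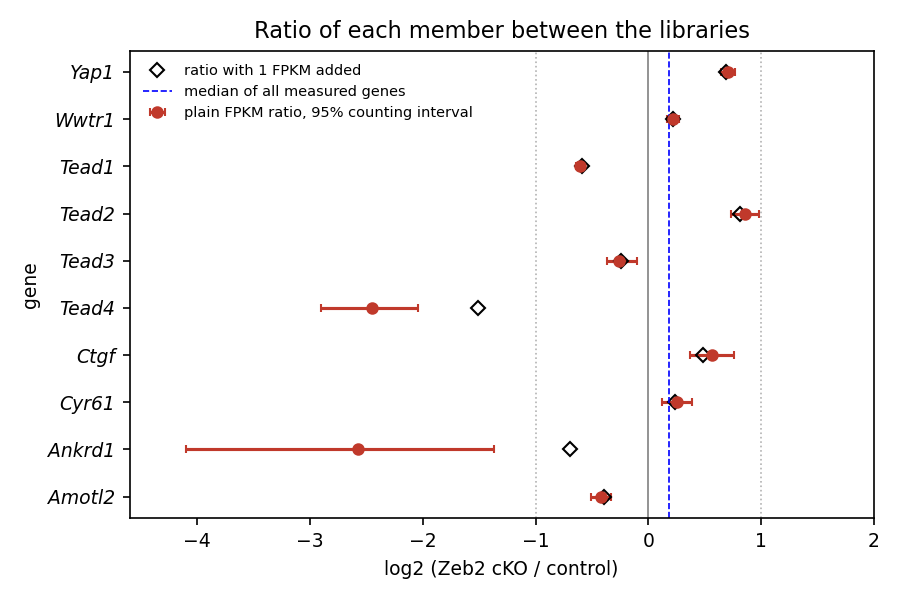
Ratio of Zeb2 cKO to control for each of the 10 genes on the log2 scale. Filled circles are plain FPKM ratios with 95% counting intervals, open diamonds the ratio with 1 FPKM added, the dashed line the median of measured genes at 0.18, and dotted lines 2-fold. Tead4 alone had both symbols past 2-fold, and Ankrd1 had its plain ratio past it.

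By level, the order of the 10 genes was similar in the libraries but not the same. In Zeb2 cKO nerves Wwtr1 and Yap1 led, with overlapping counting intervals of 43.2 to 45.7 and 41.4 to 43.9 FPKM, and Tead1 followed. In control nerves Tead1 led, ahead of Wwtr1 and Yap1, and these 3 intervals did not overlap. Cyr61 and Amotl2 were not separable by counting error in Zeb2 cKO nerves. Cyr61 and Tead3, and Tead3 and Tead2, were not separable in control nerves. Ctgf, Tead4 and Ankrd1 closed the order in both.

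Upstream of the effectors, the kinase cassette had a median log2 ratio of 0.17, beside 0.18 for all measured genes. Of its 7 measured genes 0 were past 2-fold in either direction, beside 14.8% of all measured genes. With so few genes that is near the background and no result about the cassette. The furthest from 0 were Mobkl1a (Mob1b), a Lats cofactor, at 6.82 FPKM in Zeb2 cKO nerves and 4.80 FPKM in control nerves, and Lats1, the kinase that phosphorylates Yap, at 13.0 FPKM in Zeb2 cKO nerves and 9.85 FPKM in control nerves. Mobkl1b (Mob1a) followed, at 29.0 FPKM in Zeb2 cKO nerves and 23.2 FPKM in control nerves. Their log2 ratios were 0.43, 0.37 and 0.31. Lats2, a Lats kinase that is also a Yap target, was at 15.0 FPKM in Zeb2 cKO nerves and 15.9 FPKM in control nerves, with a counting interval for the ratio of 0.907 to 1.02.

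Among 18 upstream inputs of the cascade, 1 was past 2-fold in the higher direction, beside 8.59% of all measured genes. In the lower direction 0 were past it, beside 6.25%. These shares are near the background and no result about the list, whose median log2 ratio was 0.20. The gene past 2-fold was Wwc1, also called Kibra, a scaffold that activates Lats. It was at 7.31 FPKM in Zeb2 cKO nerves and 0.585 FPKM in control nerves, 12.5-fold higher (9.72 to 16.3), and was called measured through its Zeb2 cKO level. Its paralog Wwc2 was at 11.4 FPKM in Zeb2 cKO nerves and 16.0 FPKM in control nerves, 1.40-fold lower. Next in size were the polarity protein gene Scrib, 1.72-fold lower, and Frmd6, a FERM domain protein that feeds the cascade, 1.70-fold higher, both within 2-fold. Nf2, which encodes the tumour suppressor Merlin, was at 24.8 FPKM in Zeb2 cKO nerves and 22.4 FPKM in control nerves.

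Genes whose proteins bind Yap, Taz or Tead mostly had ratios below 1. Of 8 measured partners 2 were past 2-fold in the lower direction, beside 6.25% of all measured genes, a count of few genes. In the higher direction 0 were past it, beside 8.59%. Of the 8, 7 had ratios below 1 and 0 lay above the median gene, with a median log2 ratio of -0.58. The pair past 2-fold were Vgll2 and Vgll3, Vestigial-like cofactors that compete with Yap for Tead. Vgll2, expressed in skeletal muscle, was at 0.450 FPKM in Zeb2 cKO nerves and 2.89 FPKM in control nerves, 6.43-fold lower, beside the lower muscle markers, whose part was not tested. It was called measured through its control level. Vgll3 was at 9.13 FPKM in Zeb2 cKO nerves and 24.9 FPKM in control nerves, 2.73-fold lower. Wbp2, a WW domain-binding coactivator, was at 39.1 FPKM in Zeb2 cKO nerves and 63.4 FPKM in control nerves, 1.62-fold lower. The angiomotin relatives of Amotl2 were split, with Amot 1.45-fold lower and Amotl1 1.09-fold higher. Vgll1 was listed at 0 in both libraries.

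A wider list of 18 genes known as Yap and Taz targets, none of them among the 4 above, held more genes past 2-fold. It was made with earlier results of these data known, so its share is not that of a list chosen blind. Of 17 measured, 8 were past it in the higher direction (47.1%, beside 8.59% of all measured genes) and 0 in the lower (beside 6.25%). The median log2 ratio was 0.99, beside 0.18 for all measured genes. F3, tissue factor, was at 49.3 FPKM in Zeb2 cKO nerves and 5.30 FPKM in control nerves, 9.31-fold higher. Tgfb2, a TGF-beta ligand, was at 18.0 FPKM in Zeb2 cKO nerves and 3.24 FPKM in control nerves, 5.57-fold higher. Igfbp3, which binds insulin-like growth factors, was at 138 FPKM in Zeb2 cKO nerves and 33.1 FPKM in control nerves, 4.15-fold higher. These 3 had the largest ratios of the 17 measured. Foxf2 was below 1 FPKM on average, at 0.738 FPKM in Zeb2 cKO nerves and 0.122 FPKM in control nerves.

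The other target genes past 2-fold, chosen for naming after their values were seen, were Fjx1, Myof, Dock5, Axl and Rbms3, at 3.80-fold, 3.62-fold, 3.17-fold, 2.52-fold and 2.26-fold higher. Axl is a receptor tyrosine kinase, Myof a membrane repair protein of the ferlin family and Dock5 an exchange factor for Rac. In the other direction Ptpn14, a phosphatase that also restrains Yap, was 1.61-fold lower, and Arhgef17, a guanine nucleotide exchange factor, 1.42-fold lower. Promoter windows were at hand for 12 of the 18, and 3 of these 12 held GGAATG or CATTCC.

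Markers of the nerve sheath moved with this wider list. Of 10 fibroblast markers 6 were past 2-fold in the higher direction, beside 8.59% of all measured genes. Their median log2 ratio was 1.04, and their summed level was 9278 FPKM in Zeb2 cKO nerves and 5636 FPKM in control nerves. The 2 most abundant, the collagen genes Col3a1 and Col1a2, were 1.70-fold and 1.44-fold higher. Of 8 perineurial markers 6 were past 2-fold in the higher direction, beside the same 8.59%. Their median was 1.43 and their sum 286 FPKM in Zeb2 cKO nerves and 86.8 FPKM in control nerves. The 2 most abundant in Zeb2 cKO nerves were Cldn1, a tight junction protein, 5.58-fold higher, and Slc2a1, a glucose transporter, 2.68-fold higher. The perineurial marker with the largest ratio was Moxd1, 11.7-fold higher. No marker of either list was at 0. Rescaling to a summed marker level was chosen after the values were seen. It lowers every gene of the Zeb2 cKO library by 1 factor, so a smaller count of higher targets follows from its construction. It also leaves the order of genes by plain ratio unchanged. A target share above the rescaled background is therefore no allowance for sheath cells. The fibroblast sum, whose most abundant genes are collagens, was 1.65-fold higher, while 6 of its 10 markers were past 2-fold. Scaling to that sum therefore lowers values by less than those 6 markers differed. Scaled to the fibroblast markers, where the median log2 ratio of all measured genes was -0.42, 4 of the 17 targets were past 2-fold in the higher direction (F3, Tgfb2, Igfbp3 and Fjx1), beside 2.91% of all measured genes, and 2 in the lower (Ptpn14 and Arhgef17), beside 13.9%. Scaled to the perineurial markers, where that median was -1.20, 1 target was higher (F3), beside 1.02% of all measured genes, and 5 were lower, beside 64.4%. The part of these cells in the ratios of the targets was not tested.

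Markers of other nerve cells had lower medians than the sheath markers. All 10 endothelial markers had ratios above 1, with a median log2 ratio of 0.69. Their sum was 1.51-fold higher, close to the 1.65-fold of the fibroblast sum. Past 2-fold in either direction were 0 of the 10, beside 14.8% of all measured genes. The most abundant, Egfl7 and Cldn5, had the smallest ratios of the 10, at 1.11-fold and 1.38-fold higher. Pericyte and smooth muscle markers had a median of 0.58 and a sum 1.53-fold higher. Of the 8, 2 were past 2-fold in the higher direction, beside 8.59% of all measured genes, Rgs5 at 2.07-fold and Cspg4 at 2.15-fold. Acta2, next in abundance to Rgs5, was 1.29-fold higher. Among 8 macrophage markers 0 were past 2-fold, beside 14.8% of all measured genes in either direction. Their median was 0.06, and Lyz2 and Csf1r were most abundant, the first 1.42-fold higher and the second 1.07-fold lower. Ribosomal protein genes, a check of the scale, had a median of -0.05, and 0 of 14 were past 2-fold, beside the same 14.8%.

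The Schwann cell genes reported to need Yap and Taz all had ratios below 1. Egr2, the zinc finger factor that switches on myelination, was at 8.79 FPKM in Zeb2 cKO nerves and 54.5 FPKM in control nerves, 6.21-fold lower. Itga6 was at 27.3 FPKM in Zeb2 cKO nerves and 158 FPKM in control nerves, 5.78-fold lower. Dag1, the laminin receptor dystroglycan, was at 163 FPKM in Zeb2 cKO nerves and 226 FPKM in control nerves, 1.39-fold lower and within 2-fold. Of 7 Schwann lineage markers beside them, 3 were past 2-fold in the lower direction, beside 6.25% of all measured genes. In the higher direction 1, the cadherin Cdh19, was past it, beside 8.59%. The calcium-binding protein gene S100b was 4.42-fold lower. The part of these markers in the Egr2 and Itga6 differences was not tested.

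**Figure D4:**
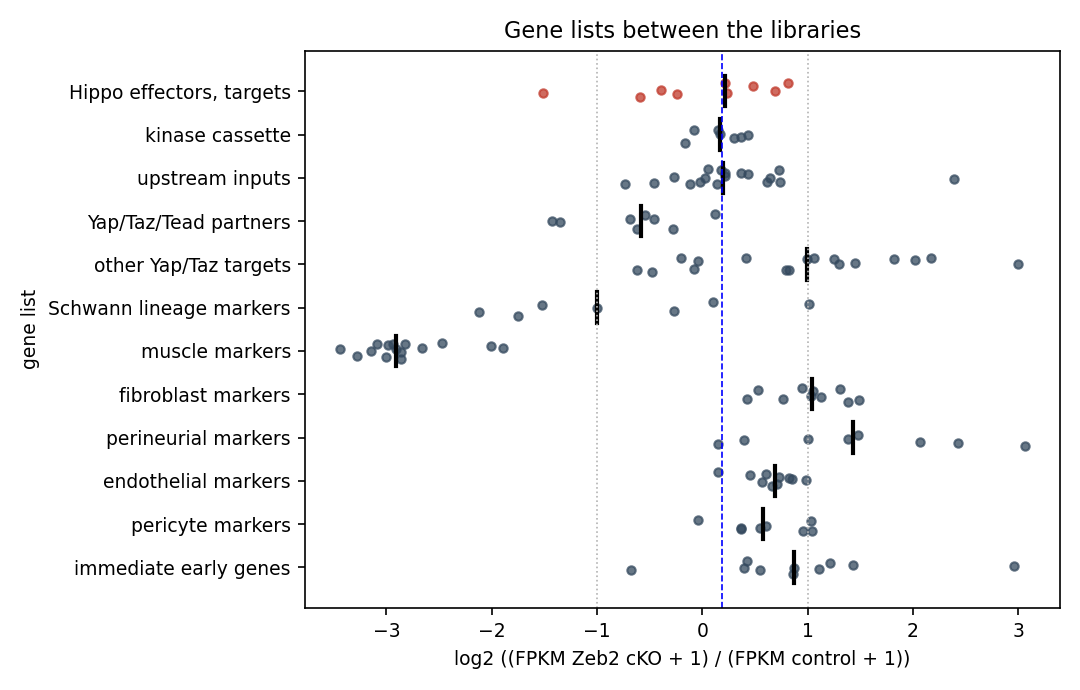
Log2 ratio of Zeb2 cKO to control, with 1 FPKM added, for each measured gene of the 10 Hippo effectors and targets (red) and of pathway and marker lists (grey). Points are genes, black bars the median of a list, the dashed line the median of measured genes and dotted lines 2-fold. The medians of the Hippo genes (0.22) and the kinase cassette (0.17) lie close to the dashed line, that of the partners (-0.58) below it, and those of the wider target list (0.99), fibroblast (1.04) and perineurial markers (1.43) above it.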

How the data were processed

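Sciatic nerve RNA was analysed from the deposited tables, 1 library per group, each assigned to its group because the labels list it under both of the group's samples. Reads were processed with CASAVA, TopHat, Cufflinks and Cuffdiff on mm9, per the submitters' processing notes, without versions. Per the file headers, the authors deposited FPKM for each RefSeq transcript, and a coverage signal (mean read depth per base) that is not scaled to library size. FPKM of rows with status OK in both tables was summed per symbol with pandas 2.3.3, leaving 12903 genes at a mean of at least 1 FPKM. Ratios are log2((FPKM Zeb2 cKO + 1)/(FPKM control + 1)), and folds are plain FPKM ratios. Reads were estimated as coverage times length over 52.6 bases, the smallest cluster of values. Counting intervals (95%) are Clopper-Pearson for ratios and exact Poisson for levels, from scipy 1.17.1. They are approximate, cover counting error only, and are read as sampling limits of these 2 libraries. Positions are mm9, counted from 1, except promoters, which are GRCm38.p6.

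The members, gene lists and the choice to study them were made with earlier results of these data known. Named genes are all members, Zeb2, the 3 largest absolute ratios of each pathway list, genes past 2-fold where there were 5 or fewer, and the 2 most abundant markers of each marker list. Other genes named for comparison were chosen after their values were seen. Mob1a, Mob1b and Ajuba were matched through their older symbols. Code was tested on simulated Poisson reads. No strand was used, and no other gene's locus overlapped a member's in the tables.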

Additional observations from a re-analysis of the deposited data

How the results depend on the processing

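No paired analysis was possible because each group has only 1 table, with 1 library in it, and leaving out a replicate could not be run either. All 9 measured Hippo genes kept their direction under every alternative run on them in which they had a value. Tead4 was between -2.30 and -0.63 and Wwtr1 between 0.012 and 0.28 on the log2 scale. The rescalings to fibroblast and perineurial markers, given below, were not run on these 9 genes. Of the 5 with ratios above 1, Yap1, Wwtr1, Ctgf and Cyr61 were higher by less than the fibroblast sum (1.65-fold). Tead2 was higher by more than that, and all 5 by less than the perineurial sum (3.29-fold). The count of Hippo genes 2-fold lower was 1, and it was 0 with 5 FPKM added or with a mean of at least 5 FPKM, which leaves Tead4 out. With a 1.5-fold threshold 2 were higher and 2 lower. Their median of 0.22 was 0.012 after rescaling to the median gene and -0.012 without a filter, which lets Ankrd1 in. Over all genes, 1109 were higher and 806 lower, and rescaling to the median gene gave 784 higher and 958 lower. The counts were 477 higher and 529 lower with 5 FPKM added, 2537 and 1266 at 1.5-fold, and 739 higher at a mean of at least 5 FPKM. Of the 7 pathway lists, 2 had a median above that of all genes, 1 did with 0.1 FPKM added or after rescaling to the median gene, and 3 did with 5 FPKM added or without a filter. The 8 wider targets 2-fold higher were 5 with 5 FPKM added, 10 with 0.1 FPKM added and 11 at 1.5-fold. As alternatives chosen after seeing the data, they were 4 when scaled to fibroblast markers and 1 when scaled to perineurial markers, which lower all genes alike (375 and 132 of all genes were then higher). Without Lats2 and Ptpn14, which other lists hold, 8 of 15 were higher. The cause of these shifts was not tested where the alternative's own construction does not give it.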
